A study of Rattus norvegicus with 9 samples.

Results

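The genes described here are 8 genes known for the thick ascending limb of the loop of Henle, measured in rat kidney after dosing with colistin methanesulfonate sodium, here CMS, from which the antibiotic colistin is released in the body. They are Umod, Egf, Slc12a1, Kcnj1, Bsnd, Casr, Ptger3 and Ppp1r1a. They were taken by symbol from the array annotation, using probe sets assigned to exactly 1 gene. The 8 genes were chosen with earlier results of these data known. All 8 were found, on 10 probe sets, among 14217 genes with such a probe set, and all 8 were among the 10337 genes with a mean log2 intensity of at least 5 that were tested. The 9 rats were Sprague-Dawley, an outbred stock, bought at 8 weeks of age and kept for 1 week before the experiment. Each received 1 intraperitoneal injection a day for 7 days, and the groups were 0 mg/kg (saline vehicle, no lesion recorded), 25 mg/kg (CMS25, basophilic and dilated tubules recorded) and 50 mg/kg (CMS50, necrosis, degenerate tubules and casts recorded). Each group had 3 rats with 1 array each, described in the labels as biological replicates, and RNA came from the whole right kidney. In whole-kidney RNA, fewer thick ascending limb cells and less RNA per cell cannot be told apart.

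The thick ascending limb takes up sodium, potassium and chloride from the tubule fluid without water, which dilutes the urine and builds the salt gradient of the medulla. Slc12a1 encodes the apical sodium-potassium-2-chloride cotransporter that loop diuretics block, Kcnj1 the apical potassium channel ROMK that returns potassium to the lumen, and Bsnd (barttin) the subunit that the basolateral chloride channels need. The same cells secrete uromodulin (Umod), the main protein of normal urine, and make the precursor of epidermal growth factor (Egf). Casr is the calcium-sensing receptor and Ptger3 the prostaglandin E2 receptor EP3, both of which restrain salt transport there, and Ppp1r1a is an inhibitor of protein phosphatase 1 that acts when phosphorylated by protein kinase A. Not all of these genes are exclusive to the segment: Kcnj1 and Bsnd are also expressed further down the nephron, and Egf in the distal convoluted tubule.

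At 50 mg/kg, 6 of the 8 genes fell, Ptger3 rose and Bsnd did not pass the test. A gene is called here when its limma p-value, adjusted by Benjamini-Hochberg over all 10337 genes, is under 0.05. Of all genes tested, 31.1% were called in this comparison, 11.4% lower and 19.6% higher. The CMS50 arrays lay wholly below those of vehicle for 6 of the 8 genes and wholly above for 1, as they did for 19.1% and 30.6% of all genes. The median log2 change was -1.37 over the 8 genes and 0.05 over all genes tested. Because the choice of the 8 was made with earlier results known, these contrasts with all genes are descriptive and not an independent test. Egf and Ppp1r1a lost about 4-fold, Kcnj1 and Casr about 3-fold. Umod lost 2.40-fold and Slc12a1 1.73-fold. At 25 mg/kg, 0 of the 8 were called, as were 0 of all 10337 genes. Values below are log2 intensities in replicates 1, 2 and 3 of each group, in that order, and group values are means ± SD with n = 3.

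**Figure D1:**
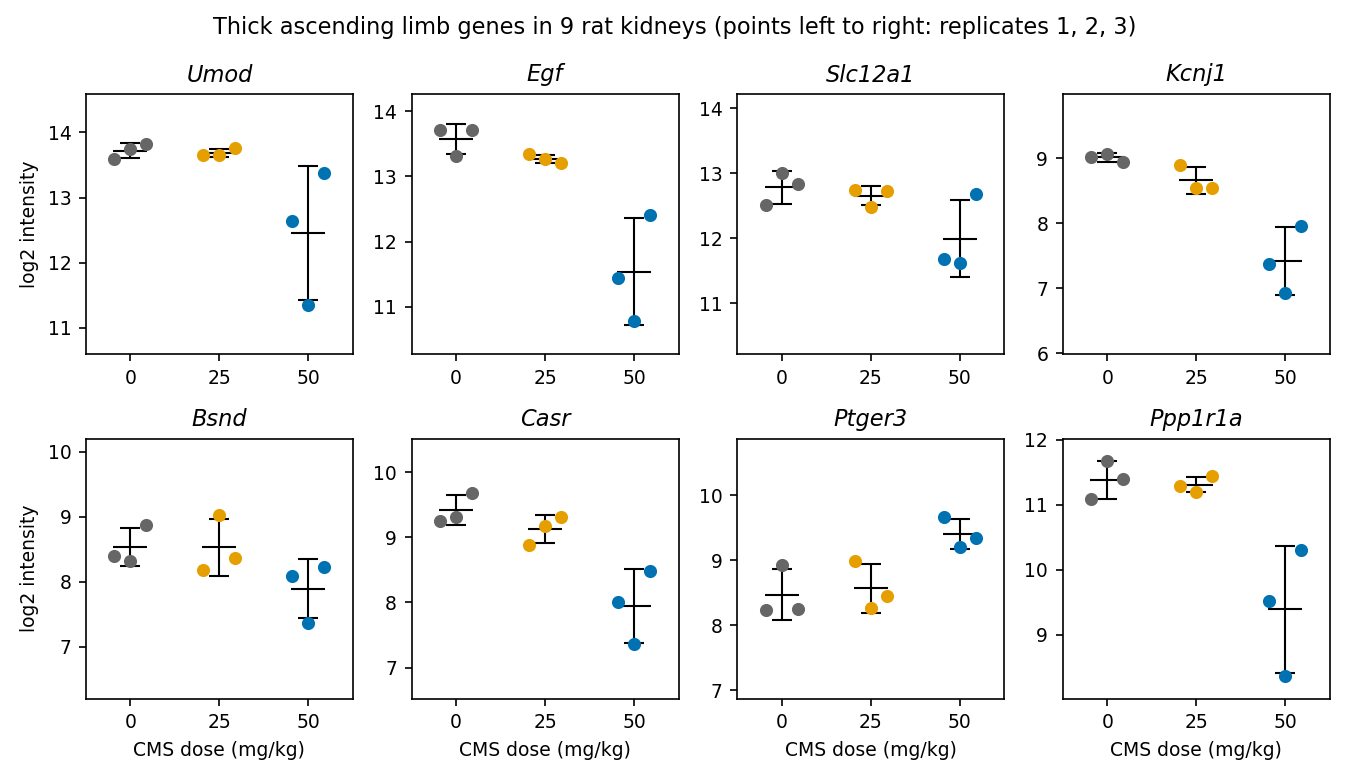
Log2 intensity of the 8 genes in each kidney against CMS dose in mg/kg, with every panel spanning 4 log2 units. Points are single rats (left to right, replicates 1, 2 and 3), and bars show the group mean and SD (n = 3). The vehicle and CMS25 kidneys lie close together, and 7 genes have a lower mean in CMS50, where Ptger3 alone has a higher one.

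Among the secreted products, Umod stood at 13.59, 13.74 and 13.82 in vehicle kidneys, 13.66, 13.65 and 13.76 in CMS25 and 12.64, 11.34 and 13.38 in CMS50. The 3 CMS50 kidneys all lay below every other kidney, but they were far apart, with an SD of 1.03 against 0.118 in vehicle and 0.0602 in CMS25. The fall was 1.27 on the log2 scale (SE 0.40, adjusted p = 0.0400 by limma), and the call was lost in 9 of 18 alternative analyses (adjusted p from 0.00411 to 0.101). Those 9 included the fits without vehicle replicate 1, 2 or 3 (adjusted p = 0.0768, 0.0978 and 0.101), without CMS25 replicate 1, 2 or 3 (0.0540, 0.0537 and 0.0515) and without CMS50 replicate 1 (0.0824). They also included cyclic loess (0.0523) and the fit of only vehicle and CMS50 (SE 0.453, adjusted p = 0.0703 by limma). That fit does not pool in the narrow spread of CMS25. Without CMS50 replicate 2 the log2 change of Umod was -0.71, still called.

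Egf was recorded at 13.72, 13.31 and 13.71 in vehicle kidneys, 13.34, 13.27 and 13.21 in CMS25 and 11.44, 10.78 and 12.40 in CMS50. The CMS50 values did not overlap those of vehicle or CMS25. Egf fell by 2.04 on the log2 scale, or 4.11-fold (SE 0.33, adjusted p = 0.00366 by limma). The call held in all 18 alternatives, with log2 changes from -2.47 to -1.66.

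Of the salt transport genes, Slc12a1 stood at 12.51, 13.005 and 12.84 in vehicle, 12.75, 12.48 and 12.74 in CMS25 and 11.68, 11.63 and 12.68 in CMS50. CMS50 replicates 1 and 2 were about 1 log2 unit below the others, whereas replicate 3 lay inside the vehicle range. The fall of 0.79 (SE 0.26, adjusted p = 0.0456 by limma) was close to the threshold and was lost in 11 of 18 alternatives, with adjusted p from 0.00131 to 0.154. It was lost on leaving out any 1 array other than CMS50 replicate 3. Without that array the log2 change was -1.13. The call of Slc12a1 was also lost when only vehicle and CMS50 were fitted (adjusted p = 0.0732 by limma), after cyclic loess (0.0595) and without an intensity minimum (0.0532).

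Kcnj1 gave 9.02, 9.07 and 8.94 in vehicle, 8.90, 8.54 and 8.54 in CMS25 and 7.37, 6.92 and 7.96 in CMS50. Its 3 dose groups did not overlap at all, and the order of the groups followed the dose. The fall at CMS50 was 1.60 on the log2 scale, or 3.02-fold (SE 0.23, adjusted p = 0.00252 by limma), and was called in all 18 alternatives. At CMS25 Kcnj1 was the member with the largest difference from vehicle (log2 change -0.35, 95% interval -0.86 to 0.16, adjusted p = 0.876), and it was the 1 member of 8 whose CMS25 and vehicle arrays did not overlap, lower in CMS25. Of all genes tested, 7.65% had CMS25 arrays that all lay below those of vehicle and 4.45% had them all above.

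Bsnd read 8.40, 8.33 and 8.87 in vehicle, 8.18, 9.03 and 8.37 in CMS25 and 8.08, 7.37 and 8.22 in CMS50. The 3 CMS50 kidneys were below all vehicle kidneys, but CMS25 replicate 1 was lower than CMS50 replicate 3. The log2 change at CMS50 was -0.64 (95% interval -1.26 to -0.02, adjusted p = 0.105 by limma), which missed the threshold, and it was -0.38 without CMS50 replicate 2. With array weights it was -0.74 and called (adjusted p = 0.0457).

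The receptors went in opposite directions. Casr stood at 9.26, 9.32 and 9.68 in vehicle, 8.89, 9.18 and 9.31 in CMS25 and 8.01, 7.36 and 8.48 in CMS50, with every CMS50 kidney below all others. Casr fell by 1.47 on the log2 scale, or 2.77-fold (SE 0.26, adjusted p = 0.00466 by limma), in all 18 alternatives.

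Ptger3, on the brighter of its 2 probe sets, read 8.24, 8.92 and 8.26 in vehicle, 8.996, 8.27 and 8.45 in CMS25 and 9.66, 9.21 and 9.35 in CMS50. The CMS50 kidneys were above all 6 others. The rise was 0.93 on the log2 scale, or 1.91-fold (SE 0.23, adjusted p = 0.0178 by limma). The other probe set read 7.04, 7.40 and 6.86 in vehicle and 7.40, 7.37 and 7.31 in CMS50, and these overlapped. It changed by 0.26 (95% interval -0.13 to 0.65, adjusted p = 0.343 in a limma fit of all 20826 probe sets with 1 gene). Averaging both gave a log2 change of 0.60 with the call lost (adjusted p = 0.0510). The call was also lost without vehicle replicate 1 or 3 or CMS50 replicate 1 (adjusted p = 0.0594, 0.0610 and 0.0690), so the rise of Ptger3 rests on 1 of its probe sets and on these arrays.

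Ppp1r1a, on its brighter probe set, stood at 11.09, 11.67 and 11.39 in vehicle, 11.29, 11.20 and 11.44 in CMS25 and 9.51, 8.36 and 10.30 in CMS50. Its SD in CMS50, 0.975, was the second largest after that of Umod. It fell by 1.99 on the log2 scale, or 3.98-fold (SE 0.40, adjusted p = 0.00718 by limma), in all 18 alternatives. Its other probe set fell by 2.14 (adjusted p = 0.00817 in the fit of all probe sets).

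**Figure D2:**
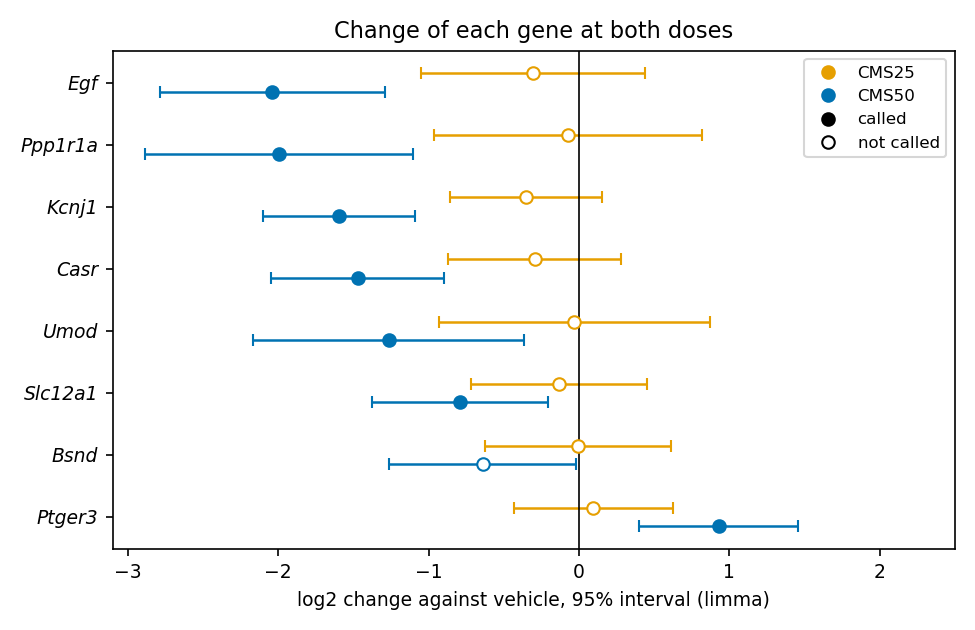
Log2 change of each gene against vehicle at CMS25 and CMS50, with 95% intervals from the limma fit (horizontal axis; 3 rats per group). Filled points are called at an adjusted p under 0.05; at CMS50 these are all genes except Bsnd, and at CMS25 there are 0.

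The comparison of 25 mg/kg with vehicle asked whether these genes had already moved at the lower dose. Log2 changes ran from -0.35 (Kcnj1) to 0.10 (Ptger3) with a median of -0.10, against -0.02 over all genes tested. 0 of 8 had an unadjusted p under 0.05, compared with 604 of all 10337 genes (5.84%), and 0 genes were called by limma with or without trend and robust fitting. These p-values and the 95% intervals use a spread pooled over all groups, CMS50 included. The intervals of this pooled fit allow a sizeable change. That of Umod (-0.03) ran from -0.93 to 0.87 and that of Slc12a1 (-0.13) from -0.72 to 0.45. That of Egf (-0.31) ran from -1.05 to 0.44 and thus lies above its estimated change at CMS50. The SD of Umod was 1.03 in CMS50 against 0.118 in vehicle and 0.0602 in CMS25. Fitting only vehicle and CMS25 gave an SE of 0.0945 for Umod, against 0.400 in the pooled fit. It gave 0.129 against 0.331 for Egf and 0.121 against 0.225 for Kcnj1. For Ptger3 alone the SE was larger, 0.245 against 0.235. In that fit 0 of 8 genes were called.

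The doses were also set against each other. In CMS50 minus CMS25, 5 of the 8 genes fell (Egf, Ppp1r1a, Kcnj1, Casr and Umod) and Ptger3 rose, where 30.3% of all genes were called, 9.43% lower and 20.8% higher. The arrays did not overlap for the same 6 genes, with 15.3% of all genes wholly lower and 30.4% wholly higher. Log2 changes were -1.73 for Egf, -1.92 for Ppp1r1a, -1.24 for Kcnj1, -1.18 for Casr and -1.24 for Umod, with limma adjusted p-values of 0.00638, 0.00856, 0.00530, 0.0105 and 0.0445. Ptger3 changed by 0.83 (adjusted p = 0.0273). Slc12a1 (-0.66, adjusted p = 0.0808) and Bsnd (-0.63, adjusted p = 0.105) missed the threshold. The calls of Egf, Ppp1r1a, Kcnj1 and Casr held in all 18 alternatives. The call of Umod was lost in 11 of 18, among them all 8 single-array leave-outs other than that of CMS50 replicate 3 (adjusted p over alternatives from 0.00457 to 0.103; log2 change -0.68 without CMS50 replicate 2). The call of Ptger3 was lost in 6 of 18, among them the fits without CMS25 replicate 2 or 3 and CMS50 replicate 1 or 2 (adjusted p over alternatives from 0.0148 to 0.0954).

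Over all 3 doses, the F test of limma called 5 of the 8 genes (Egf, Kcnj1, Ppp1r1a, Casr and Ptger3), against 28.1% of all genes. Whether the step from 25 to 50 mg/kg exceeded the step from 0 to 25 was tested as the second step minus the first. The difference was negative for 7 genes, from -0.53 for Slc12a1 to -1.85 for Ppp1r1a (95% interval -3.39 to -0.31), and 0.74 for Ptger3. It was called for 0 of 8 genes, and for 0.445% of all genes. Unadjusted p was under 0.05 for Ppp1r1a, Egf and Kcnj1 (0.0238, 0.0341 and 0.0474; adjusted p = 0.144, 0.169 and 0.198 by limma), or 3 of 8, where 24.8% of all genes were so. These 3 genes were called without CMS50 replicate 3, when 1090 genes were called in place of 46.

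The CMS50 kidneys differed among themselves in a regular order. In all 7 genes with a lower mean in CMS50, replicate 2 was the lowest of the 3 and replicate 3 the highest. Relative to the vehicle mean, the median over these 7 genes was -2.09 in replicate 2, -1.41 in replicate 1 and -0.94 in replicate 3. Among the other 1177 genes called lower in CMS50, replicate 3 was the highest in 79.6%, whereas the lowest was replicate 1 in 55.4% and replicate 2 in 39.1%. For Ptger3, replicate 1 was the highest and replicate 2 the lowest of the CMS50 kidneys. The spread was largest in CMS50 for 7 of the 8 genes, and this held for 37.9% of all genes.

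**Figure D3:**
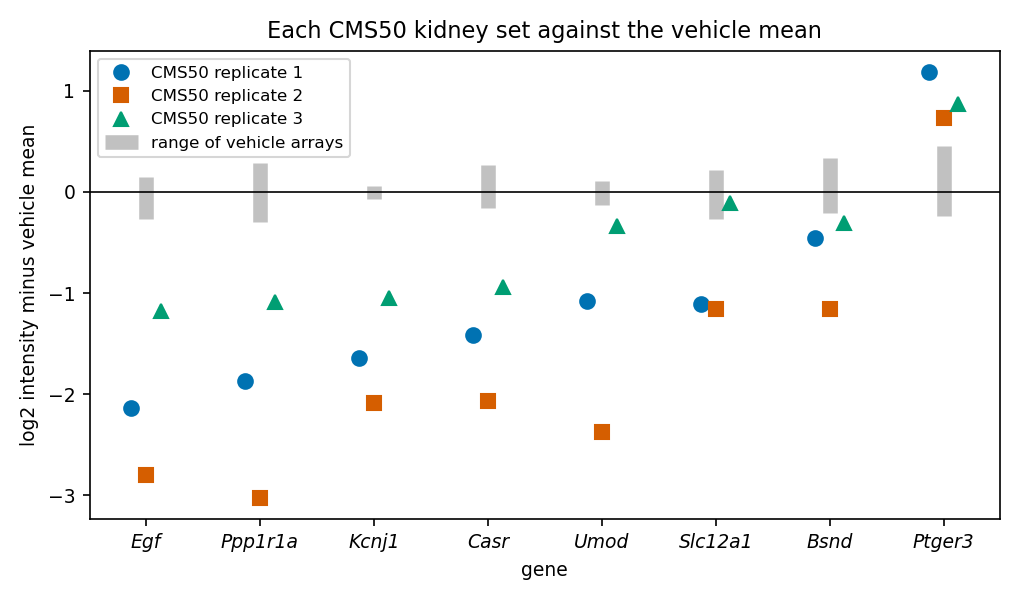
Log2 intensity of each gene (horizontal axis) in the 3 CMS50 kidneys minus the vehicle mean, with grey bars for the range of the 3 vehicle kidneys. Replicate 2 is the lowest for all 7 genes below 0, and replicate 3 of Slc12a1 lies within the vehicle range.

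Macrophage and fibroblast markers mostly ran in the opposite order across these kidneys. In CMS50 replicate 2, 13 of 14 tested macrophage markers (of 16 listed) and 7 of 7 fibroblast markers were at their highest of all 9 kidneys. Within CMS50, 12 of 14 and 6 of 7 were lowest in replicate 3. The shares of all genes with these orders were not computed, so the counts are not read as particular to these lists. All 14 macrophage markers were called higher in CMS50, as were 7 of 11 tubular injury markers, with 0 lower. Of all genes tested, 19.6% were called higher and 11.4% lower. Some markers passed the intensity minimum only through CMS50, so their rise is partly set by that filter. The macrophage marker Mrc1 read 3.69 to 4.72 in vehicle and 6.16 to 7.81 in CMS50. The injury marker Havcr1 read 3.96 to 5.58 and 10.18 to 11.66. The summed linear intensity of the 14 macrophage markers ran from 3823 to 3988 in vehicle, 3131 to 4694 in CMS25 and 8966 to 14920 in CMS50. The sum of the tubular injury markers, which the brightest probe sets dominate, ran from 6313 to 9550 in vehicle, 5764 to 8039 in CMS25 and 30400 to 46980 in CMS50. The sum of the 8 thick ascending limb genes was 35640 to 39980, 32590 to 34620 and 8886 to 25440 in the same groups. RNA quality, read as the log2 difference between the 3' and 5' control probe sets of beta-actin, was 2.98 ± 0.155 in vehicle, 3.17 ± 0.120 in CMS25 and 3.58 ± 0.0854 in CMS50 (two-sided exact permutation p = 0.1 between CMS50 and vehicle, which is the lowest value 6 arrays can give). The part of these differences in the falls was not tested.

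The estimated changes of the 8 genes differed in size within the same kidneys, but none of these differences could be called. The log2 difference of each gene from Slc12a1 on the same array is not changed by a constant shift of a whole array. Scaling that depends on intensity can change it. After cyclic loess, Bsnd and Slc12a1 both changed by -0.68 from vehicle to CMS50, against -0.64 and -0.79 as deposited. In the deposited values, from vehicle to CMS50, the difference from Slc12a1 moved by -1.25 for Egf, -1.20 for Ppp1r1a and -0.81 for Kcnj1, and the groups did not overlap for these 3 genes. It moved by 1.72 for Ptger3, also without overlap. It moved by -0.68 for Casr, -0.48 for Umod and 0.15 for Bsnd, with overlapping groups. The 4 genes without overlap had a two-sided exact permutation p of 0.1, which is 0.175 after Benjamini-Hochberg adjustment over the 7 comparisons. As 0.1 is the smallest possible p with 3 arrays per group, the test could not decide whether the changes were unequal. At CMS25 the same differences moved by -0.22 (Kcnj1) to 0.23 (Ptger3), with overlap in all 7. The difference between Umod and Slc12a1 moved by -0.10 without CMS50 replicate 2 and by -0.72 without replicate 1. That between Bsnd and Slc12a1 moved by -0.10 without CMS50 replicate 1 and by 0.33 without replicate 3.

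Other genes related to the functions of the segment were taken from 6 lists (salt transport and its kinases, tight junction, identity and secreted proteins, cAMP hormone signalling, prostaglandin metabolism and receptors, and the EGF family). They are not exclusive to the segment, and in whole-kidney RNA their changes cannot be placed in it. Of 85 listed genes, 61 were tested, and in CMS50 against vehicle 11 fell and 8 rose, with a median log2 change of -0.16. Over all genes 11.4% fell and 19.6% rose, and nothing particular to the lists is read from these counts. At CMS25 0 of 61 were called, and 3 had an unadjusted p under 0.05.

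Among 10 salt transport genes, 2 fell and 3 rose, with a median of -0.14. Stk39 (SPAK), a kinase that activates the cotransporter, fell by 0.91 (SE 0.24, adjusted p = 0.0198), and Fxyd2, the gamma subunit of the sodium pump, by 0.64. Maged2, whose loss in people causes transient antenatal Bartter syndrome, rose by 0.78 (SE 0.13, adjusted p = 0.00453), and the potassium-chloride cotransporter Slc12a7 by 0.41. Oxsr1, the kinase related to SPAK, was called higher at 0.33. The pump subunit Atp1b1 stood at 13.64 ± 0.0360 in vehicle and 13.73 ± 0.0781 in CMS50 (log2 change 0.09, 95% interval -0.08 to 0.27). The Stk39 and Oxsr1 changes therefore had opposite signs.

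Of 6 tight junction genes, Cldn16, the claudin through which the segment reabsorbs calcium and magnesium, fell by 0.92 (SE 0.18, adjusted p = 0.00693), and 0 rose. Cldn10 changed by -0.65 (adjusted p = 0.0526) and Cldn19, the partner of Cldn16, by 0.16 (95% interval -0.23 to 0.55, adjusted p = 0.518). Of 13 identity and secreted genes, 4 fell and 0 rose, with a median of -0.45. They were the homeobox gene Irx2 (-1.004, adjusted p = 0.00946), the estrogen-related receptors Esrrb (-0.79) and Esrrg (-0.45), and the serine protease hepsin, Hpn (-0.44, adjusted p = 0.0482), which cleaves uromodulin for release into urine.

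Of 18 hormone signalling genes, 4 fell and 3 rose, with a median of -0.18. The glucagon receptor Gcgr fell by 1.42 (SE 0.29, adjusted p = 0.00796), the inhibitory G protein subunit Gnai1 by 1.004, the protein kinase A regulatory subunit Prkar2a by 0.96 and the calcitonin receptor Calcr by 0.75. The inhibitory G protein subunit Gnai2 went the other way from Gnai1 and rose by 0.56 (adjusted p = 0.00925 by limma), and the adenylyl cyclase Adcy3 rose by 0.40 (adjusted p = 0.0381). Calcr was dim, at 5.40 ± 0.260 in vehicle and 4.65 ± 0.391 in CMS50. Of the 3 catalytic subunits of protein phosphatase 1, the target of Ppp1r1a, Ppp1ca was called higher at 0.25 (adjusted p = 0.0351), and Ppp1cb and Ppp1cc changed by -0.19 and 0.02 without a call.

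Of 8 tested prostaglandin genes, 1 rose and 0 fell. Hpgd, which inactivates prostaglandin E2, rose by 1.43 (SE 0.44, adjusted p = 0.0355), and its spread was wide, at 9.37 ± 0.618 in vehicle and 10.80 ± 0.608 in CMS50. The other receptors of prostaglandin E2 (Ptger1, Ptger2 and Ptger4) and Ptgs2 had means under the intensity minimum, so Ptger3 was the 1 tested receptor of this ligand. Those receptors did not exceed 4.63 in any kidney. Ptgs2 was left out on its mean over the 9 arrays (4.43), but it was not dim in every group. It read 5.79, 4.55 and 5.30 in vehicle, 4.77, 4.75 and 4.71 in CMS25 and 3.09, 3.29 and 3.63 in CMS50. Its CMS50 values all lay below the others, and the difference was not tested. In the EGF family, the receptor gene Erbb2 rose by 0.83 (SE 0.13, adjusted p = 0.00366), while Egfr, the receptor of Egf, changed by 0.18 (95% interval -0.31 to 0.67). Of the tested alternative ligands, Areg, Tgfa and Nrg1 had log2 changes of -0.16, -0.19 and 0.31, none called by limma (adjusted p = 0.905, 0.417 and 0.328). Areg was split within vehicle (4.02, 3.71 and 6.72) and CMS25 (3.83, 6.10 and 6.78), so its change does not show a steady level. The ligands Hbegf, Ereg and Btc had means under the intensity minimum and were not tested.

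**Figure D4:**
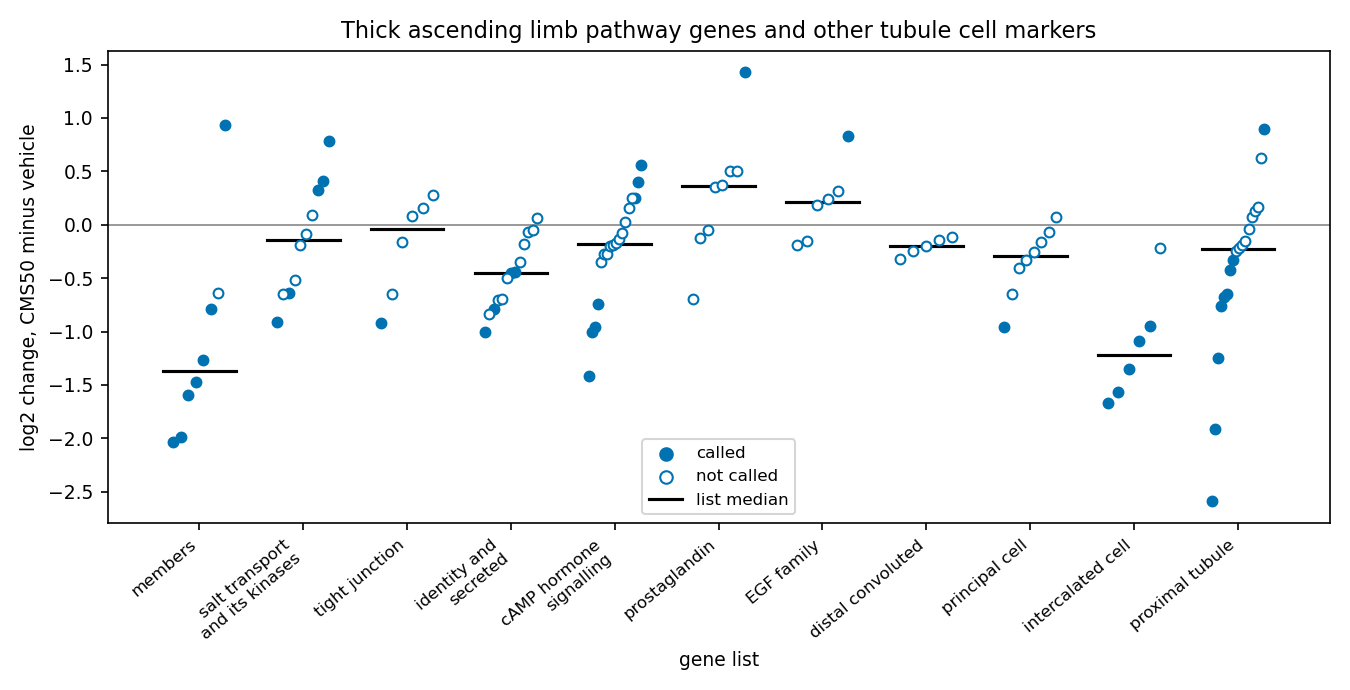
Log2 change in CMS50 against vehicle (vertical axis) for each tested gene of the thick ascending limb lists and of 4 marker lists for other tubule cells. Filled points are called, and bars mark list medians, which are -1.37 for the 8 genes, -0.20 for 5 distal convoluted tubule genes and -1.22 for 6 intercalated cell genes.

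Neighbouring segments gave a point of reference. Of 8 listed distal convoluted tubule genes, 5 were tested, of which 0 were called in CMS50 and 0 had an unadjusted limma p under 0.05. Trpm6 had no probe set with 1 gene, and Pvalb and Trpv5 had means under the intensity minimum. Trpv5 read 4.72, 4.86 and 4.71 in vehicle and 4.45, 4.33 and 4.35 in CMS50, and the difference was not tested. Pvalb overlapped between these groups. The thiazide-sensitive cotransporter Slc12a3 of that segment stood at 9.54 ± 0.360 in vehicle and 9.39 ± 0.395 in CMS50 (log2 change -0.15, 95% interval -1.01 to 0.71). Of 8 principal cell genes, Fxyd4 alone was called (-0.96), and of 6 intercalated cell genes 5 fell, led by the anion exchanger Slc4a1 (-1.67). Of 18 proximal tubule genes, 8 fell, led by Slc22a2 (-2.59), and Cubn rose, with a median of -0.23. The fall of Slc22a2 was larger than that of Egf (-2.04), the largest among the 8 genes. Of 4 podocyte genes 2 fell (median -0.82), and of 5 endothelial genes 2 fell (median -0.49), with 0 rising in either list. Of all genes tested, 11.4% were called lower and 19.6% higher. Differences between these lists and the 8 genes were not tested. In CMS50 replicate 2, all 6 intercalated cell genes, all 4 podocyte genes, 5 of 8 principal cell genes and 3 of 5 distal convoluted tubule genes were at their lowest of the 9 kidneys. In CMS25 replicate 2, all 6 intercalated and all 5 distal convoluted tubule genes were at their highest, and so was Bsnd. The shares of all genes at their lowest or highest in these kidneys were not computed.

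The genes most like each member were read from Pearson's r over the 9 arrays against all 10337 genes, as a description, since any pair of genes that both fell in CMS50 will correlate. Egf and Kcnj1 were the most alike pair of members (r = 0.98), followed by Umod and Ppp1r1a (r = 0.97). The closest gene to Umod was Cfc1 (r = 0.99), although its own log2 change was -0.27. For Egf it was the transporter Slc6a13 (r = 0.99, log2 change -1.39). For Slc12a1 it was the sodium pump regulator Fxyd6 (r = 0.99, log2 change -0.82), followed by Slc37a1 and the claudin Cldn10 (both r = 0.97). Kcnj1 was closest to Tex2 (r = 0.99), Ppp1r1a to the urate transporter Slc22a12 (r = 0.99), Bsnd to Tmem213 (r = 0.98), Casr to Vegfb (r = 0.98) and Ptger3 to Irf2 (r = 0.97). In deviations from the group means, Ppp1r1a stayed the third closest gene to Umod (r = 0.97), after Cfc1 (r = 0.99) and Lsm10 (r = 0.98). Gcgr was the third closest to Slc12a1, after Shank2 and Chac2 (all r = 0.98). The SDs of Umod, Ppp1r1a and Slc12a1 were 1.03, 0.975 and 0.59 in CMS50, against 0.118, 0.29 and 0.25 in vehicle. These r values therefore rest mostly on the order of the CMS50 kidneys described above.

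Promoter sequence is shown for 3 of the genes that fell and for Ptger3, the 1 that rose, to let a reader compare what lies upstream of them. RefSeq promoters of the rat assembly GRCr8 were matched by symbol for 7 of the 8 genes, in 9 windows of 250 bases before the annotated start, read 5' to 3' on the gene's strand. Capitals mark a match on either strand to the TATA box (TATAAA) or to the AP-2 motif (GCCNNNGGC).
Umod (chr1:183261017-183261266, minus strand): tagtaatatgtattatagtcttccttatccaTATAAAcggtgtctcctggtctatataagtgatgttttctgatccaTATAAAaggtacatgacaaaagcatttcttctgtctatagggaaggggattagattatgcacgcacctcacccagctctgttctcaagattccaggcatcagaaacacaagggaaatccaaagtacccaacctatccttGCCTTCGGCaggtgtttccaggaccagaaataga
Egf (chr2:220976298-220976547, minus strand): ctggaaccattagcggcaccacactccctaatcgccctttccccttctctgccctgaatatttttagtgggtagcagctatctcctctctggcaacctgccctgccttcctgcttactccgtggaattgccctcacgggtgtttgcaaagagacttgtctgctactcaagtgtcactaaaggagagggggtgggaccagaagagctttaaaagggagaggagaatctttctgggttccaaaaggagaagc
Kcnj1 (chr8:39037742-39037991, plus strand): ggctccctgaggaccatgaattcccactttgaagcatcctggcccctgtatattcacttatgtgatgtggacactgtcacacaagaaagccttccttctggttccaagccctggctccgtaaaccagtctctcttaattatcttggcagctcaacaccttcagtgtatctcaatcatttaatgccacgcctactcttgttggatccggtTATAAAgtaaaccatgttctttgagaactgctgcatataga
Ptger3 (chr2:249264832-249265081, plus strand): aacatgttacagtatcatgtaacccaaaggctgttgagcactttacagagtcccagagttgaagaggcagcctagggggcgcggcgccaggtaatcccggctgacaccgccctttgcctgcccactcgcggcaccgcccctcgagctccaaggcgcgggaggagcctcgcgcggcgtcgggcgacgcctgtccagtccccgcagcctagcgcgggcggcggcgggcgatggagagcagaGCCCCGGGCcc
The TATA motif was in 2 of the 9 windows, at 219 and 173 bases before the start of Umod and 41 bases before the start of Kcnj1 shown here, and in 12.9% of all 33469 rat promoter windows. A second annotated window of Kcnj1 held none of the motifs. The AP-2 motif, bound by factors such as Tfap2b of the distal nephron, was in 2 windows, 34 bases before the start of Umod and 11 before that of Ptger3, and in 12.6% of all windows. Tfap2b itself changed by -0.70 (adjusted p = 0.115 by limma). The HNF1 motif core (GTTAAT), the estrogen-related receptor motif (AAGGTCA) and the cAMP response element (TGACGTCA) were in 0 of the 9 windows and in 6.45%, 3.99% and 1.59% of all windows. The Egf window held none of the 5 motifs, and its GC content was 51.6%, against 40.8% for Umod and 68.4% for Ptger3. No 2 motifs overlapped in these windows, and the arrays hold no measure of binding.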

How the data were processed

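Kidney RNA of 9 rats was hybridised to Affymetrix rat expression arrays, 1 per rat. The authors deposited log2 intensities; RMA and Affymetrix Expression Console are named per the submitters' processing notes, without a version. RMA subtracts background, gives all arrays 1 distribution and combines the probes of a set, which removes a common shift of all genes. Values were used as deposited: 31099 probe sets, 0 missing values. Gene names came from the platform annotation; 20826 probe sets had 1 gene. For each gene the probe set with the highest mean was used if that mean was at least 5. A single limma model (version 3.58.1, R 4.3.3; lmFit, eBayes) covered all 3 groups (Benjamini-Hochberg adjustment over 10337 genes) and was tested on simulated data. The simulation gave each gene the same SD in all 3 groups, so it did not test the effect of a wider spread in CMS50. Precision is limited by the number of arrays. Labels give no batch, and whether same-numbered rats were paired is not stated. Alternatives changed scaling, intensity minimum, probe set rule, variance model, array weights, arrays fitted and the replicate block, and left out each array. The 8 genes and all lists were chosen with earlier results of these data known. Beyond the 8 genes, up to 4 called genes of each pathway list with the largest changes were named, and the 3 genes most like each of the 8 were found, of which the closest are given; other genes were named after their values were seen. Figures used matplotlib 3.10.9 under Python 3.11.15.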

Additional observations from a re-analysis of the deposited data

How the results depend on the processing

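Of the 8 genes, 7 were called in CMS50 against vehicle, and 5 to 8 in the 9 alternatives that did not leave out a single array. With 1 array left out the number was 4 to 7, and Egf, Kcnj1, Ppp1r1a and Casr were called in every one of these fits. For CMS50 minus CMS25 it was 6, and 4 to 7 over all alternatives. The test of the steps called 0 of the 8, and 0 to 3 with 1 array left out. None of the 8 genes reversed a called change. The number of all genes called was 3211 in CMS50 against vehicle (1687 to 3546 with 1 array left out), 3128 in CMS50 minus CMS25 (1569 to 3518) and 2903 in the F test (1157 to 3195). The counts fell by over 1.5 times without vehicle replicate 2 (1852), CMS50 replicate 1 (1711) or CMS50 replicate 2 (1687) in CMS50 against vehicle, and without CMS25 replicate 3 (2008), CMS50 replicate 1 (1737) or CMS50 replicate 2 (1569) in CMS50 minus CMS25. For the test of the steps it was 46, and 0 to 1090 with 1 array left out, 30 after cyclic loess, 78 with trend and robust fitting and 212 with array weights. CMS25 against vehicle had 0 calls under every alternative. Scaling moved the split of calls: in CMS50 against vehicle 2028 rose and 1183 fell as deposited, 1457 and 1638 after centring each array on its median, and 1631 and 1441 after cyclic loess. In CMS50 minus CMS25 the splits were 2153 and 975, 1307 and 1870, and 1571 and 1431. There the median of all genes moved from 0.07 to -0.06 with centring. The replicate block gave 2865 calls and the same 7 genes in CMS50 against vehicle. Same-numbered rats were not shown to be paired: correlations of their deviations ran from -0.18 to 0.26, and 7 of 18 best partners shared the number. Leaving out arrays from the within-array differences was added after the data were seen.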
